A study of Homo sapiens with 6 samples.

Results

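HRAS lies near the tip of the short arm of chromosome 11, in the band 11p15.5, among closely packed genes that share little but their position. The genes described here are all protein-coding and long noncoding genes of the count table that lie wholly between 200000 and 1000000 of chromosome 11 (GRCh38, GENCODE 29), without HRAS itself and 2 further genes. They are 54 of the 60663 genes with values, 36 protein-coding and 18 long noncoding. The rule names positions only, but the window was chosen with earlier results of these data known.

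RNA was sequenced from 5637, an established human bladder cancer cell line, 48 h after transfection. The 3 libraries of the HRAS guide group came from cells given a guide RNA against HRAS, and the 3 libraries of the control guide group from cells given a control guide RNA. Per the series' design text, both groups also carried dCas13b-FTO, whereas the sample titles name dCas13b without FTO. dCas13b is a Cas13b protein that binds RNA at a guide's target without cutting it, and FTO is an enzyme that removes the methyl mark N6-methyladenosine (m6A) from RNA. The count columns name FTO for both groups. No group is described as lacking the fusion protein, and the experiment was a transfection of a single cell line. The labels do not state whether libraries within a group were grown as independent cultures. The p-values therefore rest on library-to-library spread alone, which may be technical.

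Because Cas13b acts on RNA, the genes beside HRAS share its chromosomal surroundings but not the guide's target transcript. Neighbouring genes can share open chromatin and enhancers, and genes that start back to back on opposite strands often share a promoter. HRAS encodes a small GTPase that switches on the MAP kinase cascade. Its neighbours include the IFITM genes, whose products block virus entry at membranes and which interferon induces, and the host gene of miR-210, a microRNA induced by low oxygen. They also include housekeeping genes for the proteasome, RNA polymerase II and the pentose phosphate pathway.

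Regulatory sequence of a few of these genes is given to show its base composition and because the IFITM genes respond to interferon elsewhere. The GC content used in the results below is that of transcripts, and the promoter windows entered no fit. The promoter windows run from 250 bases before to 50 after the RefSeq start (GRCh38.p14), 5′ to 3′ on the gene's own strand. For HRAS (chr11:535527-535826, minus strand) and GATD1 (chr11:777438-777737, minus strand), capitals mark GGGCGG, the core of GC boxes bound by SP factors, CCAAT, the box bound by NF-Y, and CACGTG, the E-box, on either strand. For IFITM1 (chr11:313790-314089, plus strand) and IFITM3 (chr11:320811-321110, minus strand), capitals mark 2 copies of GAAA with any 2 bases between them, a core of interferon-stimulated response elements, also searched on both strands. IFITM5 (chr11:299477-299776, minus strand), the bone-specific member of the family, had no such match in its window. In the mature hsa-miR-210-3p (chr11:568112-568133, minus strand), capitals mark the seed, bases 2 to 8.
HRAS: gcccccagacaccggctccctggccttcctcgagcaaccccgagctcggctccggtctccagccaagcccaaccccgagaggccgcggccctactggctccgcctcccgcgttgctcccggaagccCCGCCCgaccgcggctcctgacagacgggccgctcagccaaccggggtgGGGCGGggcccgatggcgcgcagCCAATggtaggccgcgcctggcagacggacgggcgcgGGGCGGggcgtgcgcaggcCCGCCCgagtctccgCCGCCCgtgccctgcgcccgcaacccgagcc
GATD1: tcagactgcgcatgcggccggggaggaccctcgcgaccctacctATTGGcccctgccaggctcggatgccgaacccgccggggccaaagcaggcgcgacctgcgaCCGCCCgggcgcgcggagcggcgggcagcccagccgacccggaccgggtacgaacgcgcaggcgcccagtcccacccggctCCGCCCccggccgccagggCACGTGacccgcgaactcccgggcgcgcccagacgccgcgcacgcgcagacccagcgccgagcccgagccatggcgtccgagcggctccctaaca
IFITM1: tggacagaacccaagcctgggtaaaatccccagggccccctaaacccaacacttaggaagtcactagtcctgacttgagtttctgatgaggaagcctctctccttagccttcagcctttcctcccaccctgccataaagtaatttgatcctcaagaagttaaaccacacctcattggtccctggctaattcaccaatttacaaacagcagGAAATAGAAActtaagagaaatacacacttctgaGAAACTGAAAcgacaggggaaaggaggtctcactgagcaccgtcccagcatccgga
IFITM3: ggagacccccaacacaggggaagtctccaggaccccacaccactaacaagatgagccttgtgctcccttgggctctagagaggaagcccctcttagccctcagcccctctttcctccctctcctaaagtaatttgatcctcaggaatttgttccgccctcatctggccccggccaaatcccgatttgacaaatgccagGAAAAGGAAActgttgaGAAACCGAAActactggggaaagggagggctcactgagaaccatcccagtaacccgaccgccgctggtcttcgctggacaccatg
IFITM5: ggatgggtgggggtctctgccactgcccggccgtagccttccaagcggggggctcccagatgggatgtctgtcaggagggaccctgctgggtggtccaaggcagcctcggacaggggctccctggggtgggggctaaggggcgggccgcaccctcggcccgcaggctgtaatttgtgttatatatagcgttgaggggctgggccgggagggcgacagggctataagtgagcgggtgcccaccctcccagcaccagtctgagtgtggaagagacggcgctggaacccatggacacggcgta
hsa-miR-210-3p: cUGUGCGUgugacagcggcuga

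The HRAS window was 78% G or C with 40 CpG dinucleotides, and the GATD1 window 77.3% with 47. The IFITM1 and IFITM3 windows stood at 47.7% and 55.3%, with 3 and 8 CpG, and the IFITM5 window at 66.7% with 16. Over the 40 windows listed for 27 of the flanking genes, the median was 71.8% G or C and 35 CpG, against 58.7% and 14 over all 35116 RefSeq windows. GGGCGG was found in 31 of the 40 windows (77.5%), against 45.0% of all windows. CACGTG was found in 8 (20%), against 7.26%, and CCAAT in 8 (20%), against 34.6%. The GAAA pair was found in 3 (7.5%), namely those of IFITM1 and IFITM3 and 1 of SLC25A22, against 3.57% of all windows. A match describes these letters only and is not evidence of a bound site, and several genes are listed with more than 1 window. Windows of some neighbouring genes also share bases, such as those of GATD1 and GATD1-DT, so the same match can count in both.

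Library totals were 24968702 to 32283370 counts with the HRAS guide and 28374402 to 30502171 with the control guide. After a filter on low counts, 19836 genes were tested, 48 of them flanking genes: all 36 protein-coding and 12 of the 18 long noncoding. The 6 untested long noncoding genes, AC069287.2, AC136475.2, AC136475.4, AC136475.5, AC136475.9 and AC138230.1, reached at most 8 counts in a library, and AC069287.2 had 0 in every library, so no change in them was detectable at this depth. Levels are in CPM, counts scaled to a common library size. Of 13 epithelial and urothelial markers, 11 stood at a mean of at least 1 CPM, led by KRT19, and UPK1B and UPK3A stood near 0. Summed levels of that list were 10635 to 11814 CPM with the HRAS guide and 10320 to 13098 CPM with the control guide. The immune list summed to 5.30 to 6.77 CPM with the HRAS guide and 6.03 to 6.18 CPM with the control guide. It was mostly CD14 and CSF1R, at means of 3.65 and 2.46 CPM over the 6 libraries, with CD3D and MS4A1 at 0. The list of endothelium and red cells summed to 4.03 to 4.83 CPM with the HRAS guide and 4.29 to 5.22 CPM with the control guide. The fibroblast and muscle list, mostly COL1A1, summed to 156 to 198 CPM with the HRAS guide and 167 to 218 CPM with the control guide. The HEK293 and neural list, mostly SOX2, summed to 131 to 141 CPM with the HRAS guide and 123 to 148 CPM with the control guide, with STMN2 and LIN28B at 0. In a culture of this kind, fewer cells expressing a gene and less RNA per cell cannot be told apart.

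The libraries differed in how their values followed base composition. The rank correlation, over all tested genes, of a gene's deviation from its 6-library mean with its transcript GC content was 0.27, -0.49 and 0.06 in HRAS guide replicates 1, 2 and 3, and -0.46, 0.61 and -0.21 in control guide replicates 1, 2 and 3. The tested genes around HRAS had a median transcript GC content of 63.5% (49.2% to 71.6%), against 50.1% over all tested genes. At or above 60% GC were 35 of the 48 flanking genes (72.9%), against 16.0% of all tested genes. The median log2 deviation of the 48 genes was 0.12, -0.14 and 0.07 in the HRAS guide libraries, and -0.25, 0.27 and -0.05 in the control guide libraries. The flanking genes varied together from library to library, with 41, 9 and 38 of 48 above their own mean with the HRAS guide and 4, 45 and 11 with the control guide. HRAS itself deviated by 0.15, -0.11 and 0.02 with the HRAS guide and by -0.31, 0.35 and -0.10 with the control guide. The spread was widest between control guide replicates 1 and 2, within 1 group.

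**Figure D1:**
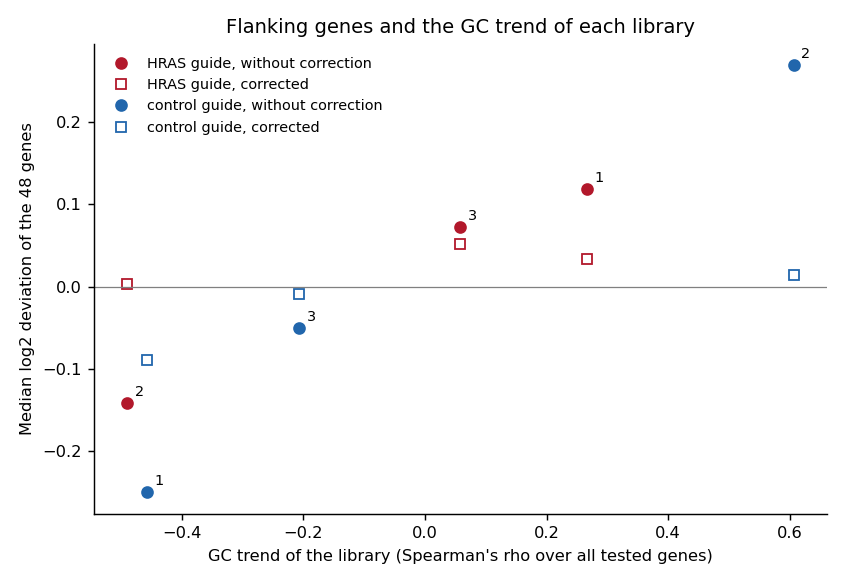
Each library's median log2 deviation of the 48 tested flanking genes from their 6-library means (vertical axis) against its GC trend, Spearman's rho over all tested genes (horizontal axis). Filled circles are values without correction, numbered by replicate, and open squares the values after correction for GC content and length. The uncorrected medians run from -0.25 in control guide replicate 1 to 0.27 in control guide replicate 2, and the corrected ones from -0.09 to 0.05.

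Each result is therefore given without and with a correction that removes each library's smooth trend with GC content and transcript length. With the correction, the median deviation of the flanking genes was 0.03, 0.00 and 0.05 in the HRAS guide libraries and -0.09, 0.01 and -0.01 in the control guide libraries. Above their own mean were then 29, 24 and 34 of 48 with the HRAS guide, and 10, 27 and 19 with the control guide. Control guide replicate 1 remained the library in which the fewest flanking genes stood above their mean.

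HRAS (ENSG00000174775, chr11:532242-537287, minus strand) was not detectably changed by its guide. It stood at 200, 167 and 184 CPM with the HRAS guide and at 146, 230 and 169 CPM with the control guide. The HRAS guide libraries lay inside the range of the control guide libraries. Means were 184 ± 16.5 CPM and 182 ± 43.7 CPM (SD, n = 3 each). The log2 fold change, HRAS guide minus control guide, was 0.01 ± 0.15 (SE), with a 95% interval of -0.32 to 0.35 (edgeR quasi-likelihood F-test, Benjamini-Hochberg adjusted p = 1.00). After correction it was 0.07 ± 0.05, with an interval of -0.05 to 0.18 (edgeR adjusted p = 0.953). Corrected levels were 188, 188 and 181 CPM, against 168, 188 and 175 CPM with the control guide.

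No flanking gene changed past the threshold of an adjusted p of 0.05. The edgeR test called 0 of the 48, against 0.0101% of all tested genes, and 0 of the 48 after correction, against 0.2%. DESeq2 and limma-voom also called 0 of the 48, against 0.141% and 0.00504% of all tested genes. At an unadjusted p below 0.05 stood 3 of the 48 flanking genes, against 663 of 19836 tested genes (3.34%). After correction there were 5 of the 48, against 1133 of 19489 (5.81%). These counts are too small to set the flanking genes apart from all tested genes. With all 6 libraries they moved with the method, from 1 in DESeq2 to 5 with the correction. The share over all tested genes at this p was not summarized for DESeq2. The groups did not overlap for 2 of the 48 genes (4.17%), against 8.81% of all tested genes, and for 9 of the 48 after correction (18.8%), against 12.3%. The median log2 fold change of the flanking genes was 0.01, with 25 positive and 23 negative, beside -0.00 over all tested genes. After correction it was 0.06, with 32 positive and 16 negative, beside -0.00. Without correction the sign rested on single libraries, and the median was -0.10 without control guide replicate 1 and 0.17 without control guide replicate 2. After correction it was 0.02 without control guide replicate 1 and 0.09 without control guide replicate 2.

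The intervals give, gene by gene, the range of change compatible with the libraries. They are not adjusted for the number of genes, so they do not give the change that would pass the threshold. The 95% interval of the log2 fold change lay within 1.5-fold either way for 34 of the 48 genes, and for 36 after correction. It lay within 1.2-fold for 3 genes, and for 21 after correction. The protein-coding genes had a median log2 fold change of -0.01 without correction and 0.03 with it. The 12 tested long noncoding genes, most of them low in counts, had medians of 0.17 without and 0.20 with correction, with 10 positive and 2 negative in both fits. They are not all at separate positions, since AP006621.2 and AP006621.5 lie within the span of AP006621.3. Long noncoding genes elsewhere were not summarized, so whether the shift is local was not tested. The rest of chromosome 11, 1033 tested genes, had a median of -0.02 without correction and -0.01 with it, and the 43 tested genes from 1000000 to 3000000 had -0.03 and 0.01.

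The values showed no steady trend with distance from HRAS, although the nearest genes had the highest median. Distance is the gap between the nearest annotated ends of the gene and of HRAS. The 6 genes within 25 kb had a median log2 fold change of 0.06, the 6 at 25 to 100 kb -0.01, the 23 at 100 to 250 kb -0.01 and the 13 beyond 250 kb 0.02. After correction the same classes had medians of 0.10, 0.04, 0.04 and 0.06. Within 25 kb the highest values without correction were those of LMNTD2, LRRC56 and AP006284.1, at 0.15, 0.14 and 0.11. Exons of LMNTD2 overlap those of both others, so these may not be separate measurements. RASSF7, RNH1 and AC137894.1, also within 25 kb, had 0.01, -0.06 and -0.17. Spearman's rho between log2 fold change and distance across the 48 genes was 0.07, and 0.04 after correction, given as a description, since the points share the same 6 libraries and similar base composition. It was 0.29 without the 20 genes whose exons overlap another gene. Between log2 fold change and transcript GC content it was -0.31, and -0.23 after correction. On the telomeric side (18 genes) the median was -0.03, and 0.01 after correction. On the centromeric side (30 genes) it was 0.02, and 0.07 after correction.

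**Figure D2:**
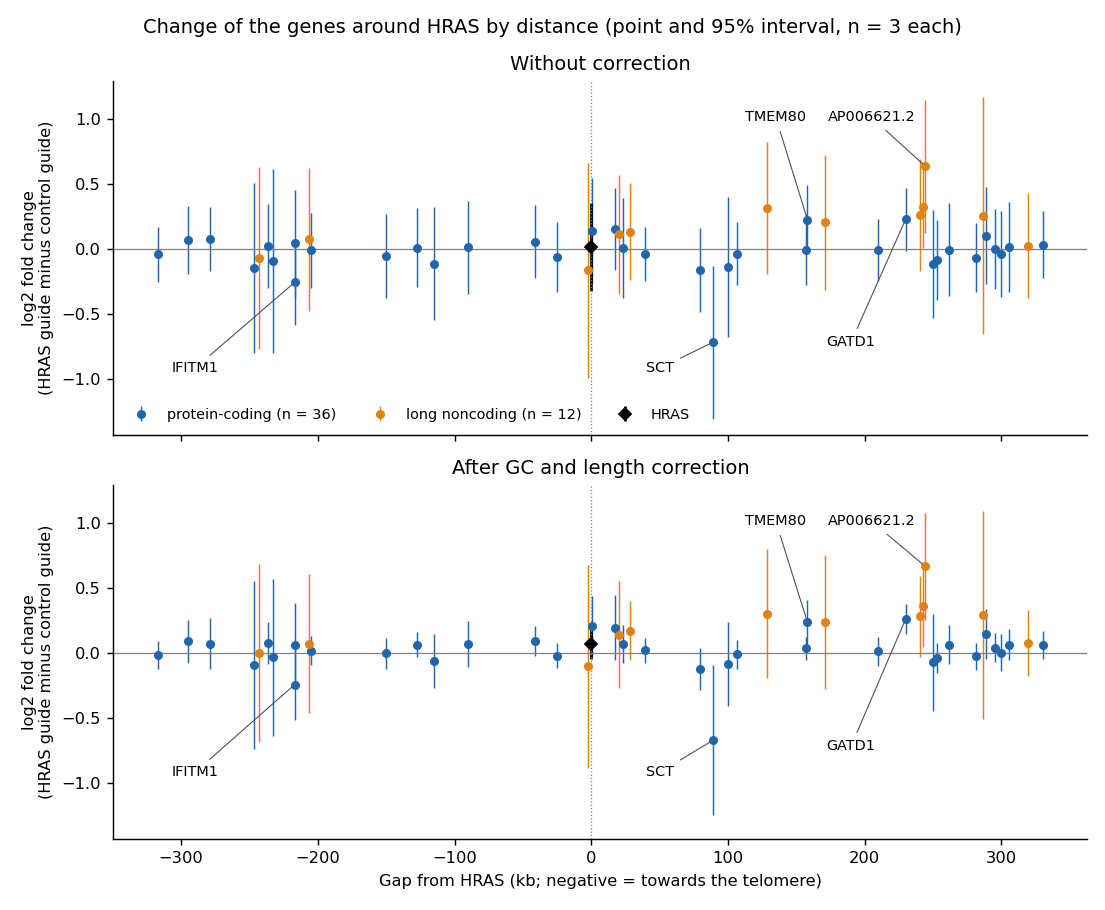
Log2 fold change (HRAS guide minus control guide) of each tested flanking gene with its 95% interval (vertical axis) against its gap from HRAS in kb (horizontal axis, negative towards the telomere), without correction (upper panel) and after it (lower panel), n = 3 libraries each. Blue is protein-coding, orange long noncoding, the black diamond HRAS. Values lie around 0 at all distances, and the extremes are SCT at -0.72 and AP006621.2 at 0.64 without correction.

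The nearest neighbour on the centromeric side, LRRC56, encodes a leucine-rich repeat protein needed to assemble the dynein arms of motile cilia. In GENCODE 29 it starts 240 bases from the start of HRAS, on the opposite strand, while RefSeq gives it a span of 506462 to 554912 that runs across HRAS. RefSeq starts HRAS itself at 535576, inside the GENCODE 29 span. It stood at 15.0, 12.5 and 13.0 CPM with the HRAS guide and at 9.52, 16.1 and 11.2 CPM with the control guide. The control guide libraries spanned all 3 HRAS guide libraries. A log2 fold change of 0.14 ± 0.18 was estimated (interval -0.27 to 0.54), and 0.21 ± 0.10 after correction (interval -0.02 to 0.44, edgeR adjusted p = 0.877). Reads of LRRC56 and HRAS cannot be told apart where transcripts overlap, because the strandedness of the counts is not given in the sources used here.

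LMNTD2, which encodes a protein with a lamin tail domain, stood at 7.76, 7.41 and 8.17 CPM with the HRAS guide and at 5.81, 7.79 and 7.41 CPM with the control guide. The groups overlapped, with control guide replicate 1 lowest. AP006284.1, a long noncoding gene on its opposite strand with the current symbol LMNTD2-AS1, stood at 2.37, 1.91 and 2.21 CPM with the HRAS guide and at 2.04, 2.36 and 1.62 CPM with the control guide. Its groups overlapped too. The log2 fold changes were 0.15 ± 0.14 for LMNTD2 and 0.11 ± 0.21 for AP006284.1, and 0.19 ± 0.11 and 0.14 ± 0.19 after correction. Exons of these genes overlap each other or LRRC56, so their counts share the same limit.

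RASSF7 encodes a RAS-association domain protein of the N-terminal RASSF class. It stood at 85.0, 65.5 and 79.5 CPM with the HRAS guide and at 58.7, 97.7 and 72.9 CPM with the control guide, which held both the lowest and the highest library. On the log2 scale the change was 0.01 ± 0.17, and 0.07 ± 0.06 after correction. Corrected levels narrowed to 80.0, 74.4 and 78.1 CPM, against 67.5, 79.1 and 75.2 CPM with the control guide.

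On the telomeric side the nearest tested gene was AC137894.1, a long noncoding gene 2582 bases away with 118 counts in all. It stood at 0.402, 0.751 and 0.738 CPM with the HRAS guide and at 0.484, 0.978 and 0.694 CPM with the control guide. The groups overlapped and the log2 fold change was -0.17 ± 0.37. RNH1 encodes the inhibitor of pancreatic-type ribonucleases. It stood at 180, 157 and 170 CPM with the HRAS guide and at 150, 209 and 170 CPM with the control guide. Its log2 fold change was -0.06 ± 0.12, and -0.02 ± 0.04 after correction (interval -0.12 to 0.07). All 6 corrected RNH1 values lay between 168 and 176 CPM.

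PTDSS2, which makes phosphatidylserine from phosphatidylethanolamine, stood at 62.7, 54.0 and 59.4 CPM with the HRAS guide and at 50.1, 67.6 and 51.8 CPM with the control guide. The groups overlapped. After correction it stood at 59.3, 59.7 and 58.7 CPM, against 56.7, 56.5 and 53.4 CPM with the control guide, and the groups no longer overlapped. On the log2 scale PTDSS2 differed by 0.06 ± 0.13, and 0.09 ± 0.05 after correction (edgeR adjusted p = 0.895). ANO9, an anoctamin membrane protein, stood at 73.9, 57.5 and 71.9 CPM with the HRAS guide and at 53.3, 83.4 and 64.7 CPM with the control guide. Its groups overlapped, with a log2 fold change of 0.01 ± 0.16, and 0.07 ± 0.08 after correction.

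**Figure D3:**
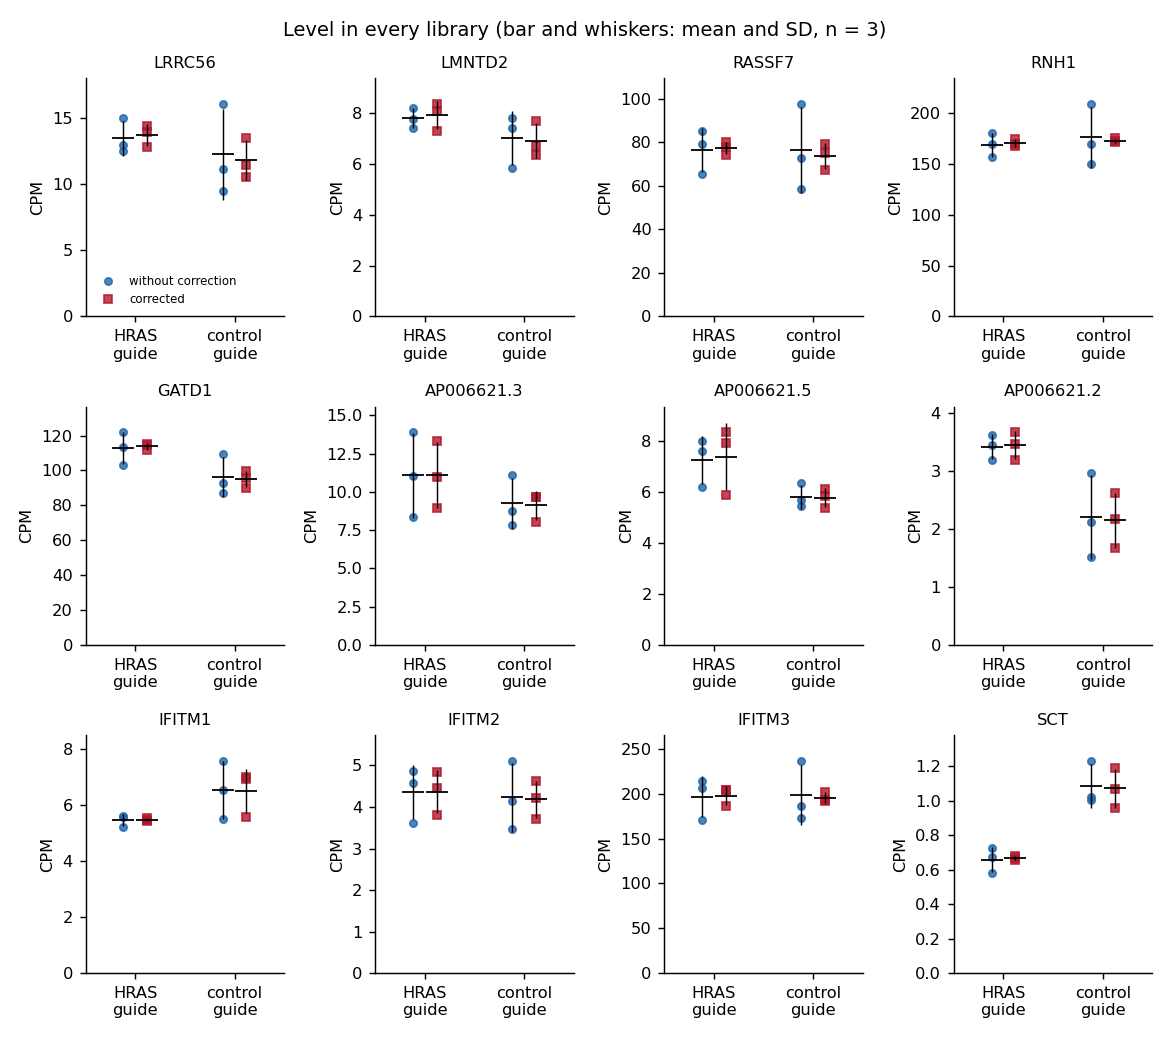
Level in CPM of 12 flanking genes in each library, HRAS guide left and control guide right in each panel, without correction (blue circles) and after it (red squares), with the mean (bar) and SD (whiskers) of n = 3. For RASSF7 the control guide libraries spread from 58.7 to 97.7 CPM without correction and from 67.5 to 79.1 CPM after it. GATD1 is the gene of smallest p after correction.

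Of the 5 genes at an unadjusted p below 0.05 after correction, GATD1, AP006621.2 and AP006621.5 lay together, 229932 to 244357 bases from HRAS on the centromeric side. The others were TMEM80 and SCT. None of the 5 lay within 25 kb of HRAS, where only 6 of the 48 tested genes lie. GATD1 (ENSG00000177225, chr11:767220-777488, minus strand) encodes a subunit of the FERRY complex, which links mRNA to early endosomes. It stood at 122, 103 and 113 CPM with the HRAS guide and at 87.3, 109 and 92.5 CPM with the control guide. Control guide replicate 2 lay above HRAS guide replicate 2, so the groups overlapped. After correction GATD1 stood at 115, 115 and 112 CPM, against 99.6, 90.04 and 95.7 CPM with the control guide, and all 3 HRAS guide libraries were higher. The log2 fold change was 0.23 ± 0.11 (interval -0.01 to 0.47), and 0.26 ± 0.05 after correction (interval 0.15 to 0.37, edgeR adjusted p = 0.147). The corrected adjusted p was 0.0406 without control guide replicate 2, 0.0586 without control guide replicate 1, and 0.635 to 0.748 without any other library.

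On the opposite strand, 90 bases from the start of GATD1, begins the long noncoding gene AP006621.3, with the current symbol GATD1-DT. It stood at 13.9, 8.33 and 11.1 CPM with the HRAS guide and at 8.76, 11.1 and 7.84 CPM with the control guide. The groups overlapped, with HRAS guide replicate 1 highest. AP006621.3 had a log2 fold change of 0.26 ± 0.19, and 0.28 ± 0.14 after correction (edgeR adjusted p = 0.877). It was named, as were AP006621.2 and SCT below, after the values were seen.

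AP006621.5 and AP006621.2 lie within the span of AP006621.3 on the same strand. AP006621.5 stood at 6.20, 7.61 and 7.99 CPM with the HRAS guide and at 5.43, 6.34 and 5.69 CPM with the control guide. Only HRAS guide replicate 1 stood below the highest control guide library. AP006621.5 had a log2 fold change of 0.32 ± 0.14, and 0.36 ± 0.14 after correction (edgeR adjusted p = 0.747). AP006621.2 stood at 3.62, 3.45 and 3.20 CPM with the HRAS guide and at 1.52, 2.97 and 2.12 CPM with the control guide, and its groups did not overlap in either fit. Its log2 fold change was 0.64 ± 0.23 (interval 0.12 to 1.15), and 0.67 ± 0.19 after correction (interval 0.25 to 1.08, edgeR adjusted p = 0.534). In GENCODE 29 the exons of these genes do not overlap those of AP006621.3.

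TMEM80, a transmembrane protein linked to the base of cilia, stood at 22.8, 20.8 and 22.8 CPM with the HRAS guide and at 16.2, 20.8 and 19.8 CPM with the control guide. The lowest HRAS guide library and the highest control guide library were nearly equal. After correction it stood at 22.2, 21.6 and 22.8 CPM, against 17.2, 19.3 and 20.04 CPM with the control guide, with no overlap. TMEM80 had a log2 fold change of 0.22 ± 0.12, and 0.24 ± 0.08 after correction (edgeR adjusted p = 0.655). Exons of TMEM80 overlap those of DEAF1 on the opposite strand.

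SCT, the gene of the gut hormone secretin, was the most negative of the 48. It had 18, 17 and 22 counts with the HRAS guide and 29, 34 and 31 counts with the control guide, or 0.724, 0.580 and 0.676 CPM with the HRAS guide against 1.00, 1.23 and 1.03 CPM with the control guide. All 3 HRAS guide libraries were lower. SCT had a log2 fold change of -0.72 ± 0.26 (interval -1.31 to -0.13), and -0.67 ± 0.26 after correction (edgeR adjusted p = 0.747). A hormone gene with this few counts in a bladder line is measured with little precision.

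The IFITM genes stood at very different levels. Per kb of exon, IFITM3 was the highest of the flanking genes, at 146 CPM per kb with the HRAS guide and 147 with the control guide. IFITM3 stood at 214, 171 and 206 CPM with the HRAS guide and at 173, 236 and 186 CPM with the control guide. The groups overlapped fully, and the log2 fold change was -0.01 ± 0.13, and 0.02 ± 0.05 after correction. IFITM1 stood at 5.59, 5.22 and 5.56 CPM with the HRAS guide and at 6.54, 7.57 and 5.49 CPM with the control guide. Control guide replicate 3 lay among the HRAS guide libraries, and after correction just above them. The log2 fold change was -0.26 ± 0.15 (interval -0.59 to 0.07), and -0.24 ± 0.12 after correction (edgeR adjusted p = 0.877).

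IFITM2 stood at 4.59, 3.62 and 4.86 CPM with the HRAS guide and at 3.46, 5.11 and 4.13 CPM with the control guide, with a log2 fold change of 0.04 ± 0.19. IFITM5 stood at 0.966, 0.785 and 0.799 CPM with the HRAS guide and at 0.588, 1.23 and 0.893 CPM with the control guide, with -0.09 ± 0.32. Both genes' groups overlapped. IFITM1, IFITM2 and IFITM3 are closely similar in sequence, and exons of IFITM1 and IFITM2 overlap on 1 strand, so the counting may have split reads between them. Of 32 tested interferon response genes outside the window, 0 passed the threshold in edgeR without or with correction, and 0 in DESeq2 or limma-voom. At an unadjusted p below 0.05 stood 2 of the 32, and 4 after correction, against 3.34% and 5.81% of all tested genes. The groups did not overlap for 6 of the 32 (18.75%), all higher with the HRAS guide, against 8.81% of all tested genes. After correction they did not overlap for 9 (28.1%), 8 higher and 1 lower, against 12.3%. The list's median log2 fold change was 0.09 in both fits. Without correction 28 were positive and 4 negative, beside 9815 and 10021 over all tested genes. OASL, an antiviral oligoadenylate synthetase-like protein, had the smallest p of that list, with 0.42 ± 0.11, and 0.44 after correction (edgeR adjusted p = 0.203).

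MIR210HG, the host transcript of miR-210, whose seed is shown above, lay close to RASSF7. It stood at 7.44, 5.80 and 7.01 CPM with the HRAS guide and at 5.26, 7.500 and 5.72 CPM with the control guide. The groups overlapped, and after correction all 3 HRAS guide libraries were higher, at 7.02, 6.47 and 6.91 CPM against 5.996, 6.20 and 5.91 CPM with the control guide. The log2 fold change was 0.13 without correction and 0.17 with it (edgeR adjusted p = 0.912). The mature microRNA was not measured here. Among 22 other hypoxia-induced genes, 0 passed the edgeR threshold without correction and 1 was lower with it. At an unadjusted p below 0.05 stood 1 of the 22 without correction and 2 with it, against 3.34% and 5.81% of all tested genes. DESeq2 called 1 gene of the list and limma-voom 0. The gene called was VEGFA, a growth factor for blood vessels, with -0.49 ± 0.08 (edgeR adjusted p = 0.220), and -0.48 ± 0.05 after correction (edgeR adjusted p = 0.00449). The corrected call was lost without HRAS guide replicate 1, HRAS guide replicate 3 or control guide replicate 3, at edgeR adjusted p of 0.0586, 0.0752 and 0.0562. The other gene at an unadjusted p below 0.05 after correction, PDK1, a kinase that restrains pyruvate oxidation, stood at 0.24 ± 0.10 (edgeR adjusted p = 0.763). The median of the list was -0.02, and -0.03 after correction.

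Genes that start back to back were compared with their partners. SIRT3, a mitochondrial deacetylase, and PSMD13, a subunit of the proteasome lid, had log2 fold changes of 0.07 and 0.08, and 0.09 and 0.07 after correction. LMNTD2 and RASSF7 had 0.15 and 0.01, GATD1 and AP006621.3 had 0.23 and 0.26, and POLR2L and TSPAN4 had -0.04 and 0.02. AP006621.1 and CD151 had 0.25 and -0.00. HRAS and LRRC56, the pair that holds the guide's target, had 0.01 and 0.14, and 0.07 and 0.21 after correction. In RefSeq LRRC56 runs across HRAS, so there this pair does not start back to back. No gene of these pairs passed the threshold.

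Other housekeeping and signalling genes of the window had overlapping groups without and with correction. Where 2 log2 fold changes are given for a gene below, the first is without correction and the second with it. POLR2L, a small subunit shared by the RNA polymerases, had a log2 fold change of -0.04, and 0.00 after correction. TALDO1, the transaldolase of the pentose phosphate pathway, had -0.01 and 0.01. RIC8A, a chaperone of G protein alpha subunits, had -0.04 and -0.02, and PHRF1, a PHD and RING finger protein, had -0.04 and 0.02. PIDD1, which assembles the caspase-2 activating PIDDosome, had -0.01 and 0.06. DEAF1, a transcription factor, had -0.04 and -0.01.

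The membrane and junction genes included some of the highest in the window. CD151, a tetraspanin that binds laminin-binding integrins, stood at 331, 280 and 325 CPM with the HRAS guide and at 254, 385 and 299 CPM with the control guide. The control guide libraries spanned the HRAS guide libraries, and the log2 fold change was -0.00, and 0.04 after correction. EPS8L2, an actin-regulating EPS8 relative, had -0.01 and 0.04. After correction its HRAS guide libraries stood at 281, 282 and 275 CPM, above the control guide libraries at 273, 271 and 273 CPM, though by little. PKP3, a desmosomal plakophilin, had 0.01 and 0.06, and TSPAN4, a tetraspanin of migrasomes, had 0.02 and 0.06. CDHR5, a brush border cadherin, had -0.16 and -0.12. Its corrected levels were 17.2, 16.4 and 17.9 CPM with the HRAS guide, below 18.4, 18.6 and 19.3 CPM with the control guide.

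Per kb of exon, IFITM3 was followed among the flanking genes by CD151 at 79.2 CPM per kb with the HRAS guide and 79.3 with the control guide, with HRAS between IFITM3 and CD151 at 99.0 CPM per kb with the HRAS guide and 98.03 with the control guide. TALDO1 followed at 59.0 CPM per kb with the HRAS guide and 59.3 with the control guide, next to POLR2L at 57.7 with the HRAS guide and 59.2 with the control guide. EPS8L2 stood at 48.5 CPM per kb with the HRAS guide and 48.8 with the control guide, and PKP3 at 44.5 with the HRAS guide and 44.1 with the control guide. NLRP6, an inflammasome sensor best known from the gut, was lowest at 0.274 CPM per kb with the HRAS guide and 0.304 with the control guide, with a log2 fold change of -0.15, and -0.09 after correction.

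Enzymes and transporters of the window also had small values. PNPLA2, the adipose triglyceride lipase, had log2 fold changes of -0.07 without and -0.03 with correction. SLC25A22, a mitochondrial glutamate carrier, had -0.09 and -0.04, and B4GALNT4, an N-acetylgalactosaminyltransferase, had -0.06 and -0.00. PGGHG, a glucosidase of hydroxylysine-linked sugars, had 0.02 and 0.08. CHID1, a chitinase domain protein, had 0.03 and 0.06, and CRACR2B, a regulator of store-operated calcium entry, had 0.10 and 0.15. None passed the threshold.

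The intervals of the following genes all spanned 0. SIGIRR, a damping receptor of interleukin-1 and Toll-like signalling, had -0.11 and -0.06, DRD4, the dopamine D4 receptor, had -0.14 and -0.09, and CEND1, a neuronal cell-cycle exit protein, had -0.12 and -0.07. Of the long noncoding genes not yet given, AC131934.1 had 0.32 and 0.30, AP006621.4 had 0.20 and 0.24, and AP006621.1 had 0.25 and 0.29. AC136475.1 had 0.07 and 0.07, AC136475.3 had -0.07 and -0.00, and AP006623.1 had 0.03 and 0.08. Exons of 20 of the 48 tested genes overlap those of another gene, 17 of them on the opposite strand.

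**Figure D4:**
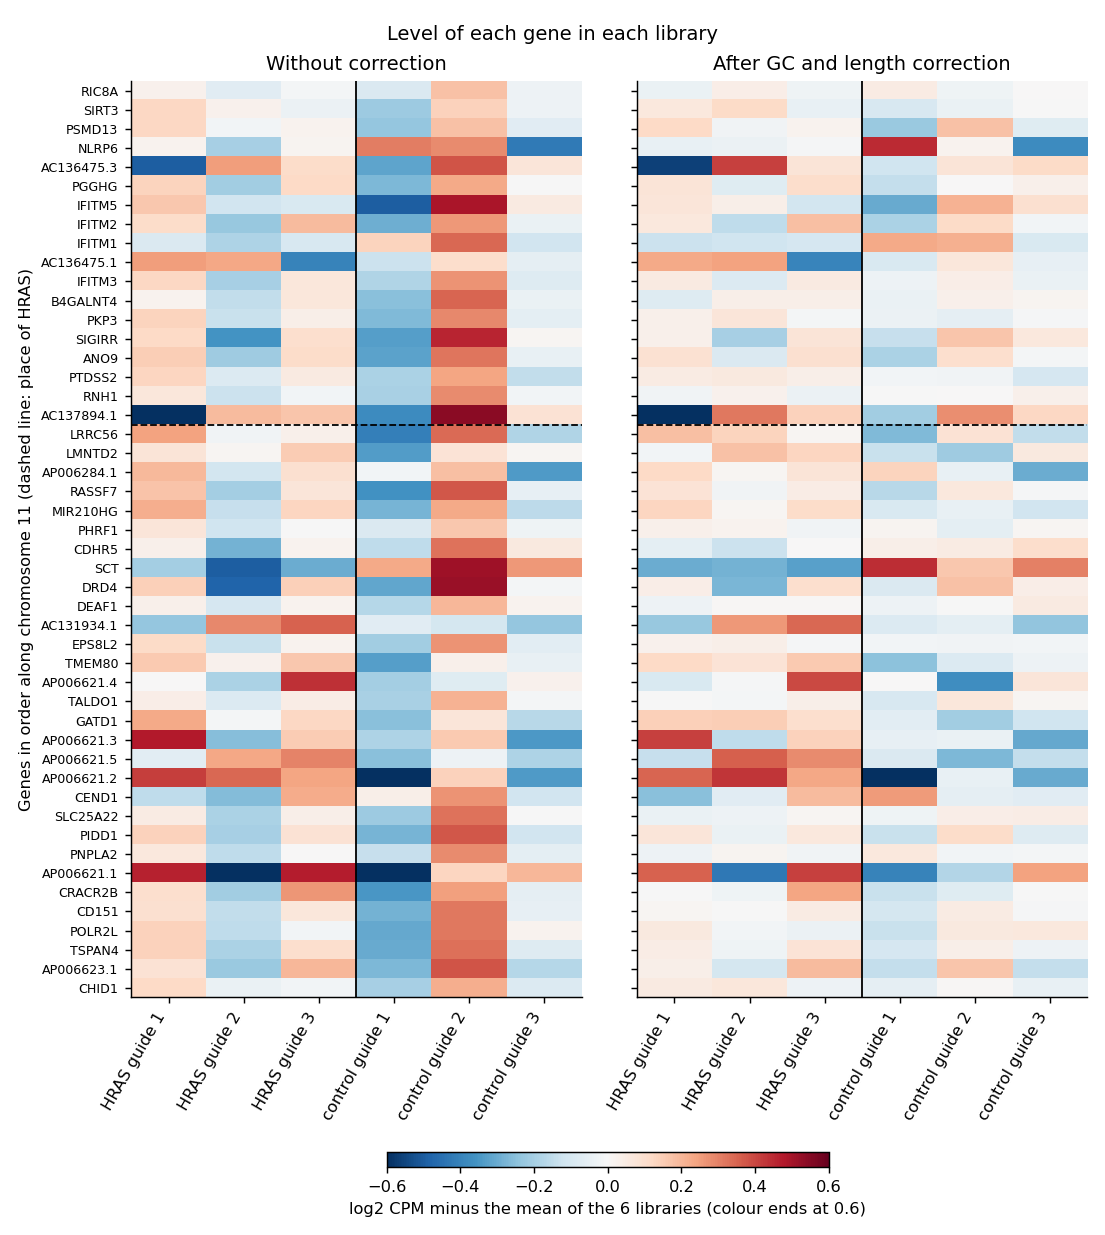
Log2 CPM of each tested flanking gene minus its mean over the 6 libraries, in order along chromosome 11, without correction (left) and after it (right), HRAS guide columns left of control guide columns. The colour scale ends at 0.6 either way, and the dashed line marks the place of HRAS. Without correction whole columns share a colour, with 45 of 48 genes above their mean in control guide replicate 2 and 4 of 48 in control guide replicate 1.

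Partners of the flanking genes elsewhere in the genome were set beside them. None of 17 other subunits of the proteasome regulatory particle passed the threshold, with a median log2 fold change of 0.00 and 9 positive and 8 negative. ADRM1, a ubiquitin receptor of that particle, had the smallest p, at -0.13. None of 11 other RNA polymerase II subunits passed, with a median of 0.03, and POLR2C, of the polymerase core, stood at -0.12. None of 20 tetraspanins and partners passed, with a median of 0.00, and ITGB4, the hemidesmosomal integrin chain, stood at -0.11.

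The smaller lists gave the same count. Of 8 PIDDosome partners 0 passed (median -0.04), with CDKN1A, a cell cycle inhibitor, at -0.20. Of 15 RASSF and Hippo genes 0 passed (median -0.02), with RASSF10 at -0.22. Of 6 other sirtuins 0 passed (median -0.03), with SIRT1, a nuclear deacetylase, at -0.17. After correction these 6 lists also had 0 genes past the threshold in edgeR, and they had 0 in DESeq2 and limma-voom. At an unadjusted p below 0.05 edgeR had 1 of the 8 genes of the PIDDosome list and 0 of the other lists, against 3.34% of all tested genes. After correction it had 1 of the PIDDosome list, 2 of the 15 RASSF and Hippo genes, 2 of the 6 sirtuins and 0 of the other lists. The share over all tested genes was then 5.81%.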

How the data were processed

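The deposited values are raw counts of reads per gene, whole numbers that were not normalized, in a single table of 60664 Ensembl genes with a column per library. One gene without values was left out. Per the submitters' processing notes, HISAT2, StringTie, DESeq2 and the hg38 build were used, neither with a version nor with a role. The counting tool is not given in the sources used here, and neither are the annotation release and strandedness. Columns were matched to libraries by guide and replicate number.

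Genes were filtered with filterByExpr and scaled by TMM factors, and the groups were compared in edgeR 4.0.16 (R 4.3.3) by its two-sided quasi-likelihood F-test, with Benjamini-Hochberg adjustment over all tested genes. CPM are counts scaled to the TMM-adjusted library size, and in the marker sums to the library total. SE come from the F statistic and intervals are at 95%. The correction took each gene's deviation in log2 CPM (prior count 2) from its mean over the libraries. In each library these deviations were fitted by robust regression on splines of GC content (5 degrees of freedom) and log10 transcript length (4). Genes whose mean log2 CPM exceeded 1 were used for the fitting. The fits, centred over the libraries, entered edgeR as offsets for 19489 annotated genes. GENCODE 29 supplied positions, biotypes, lengths and GC content, and RefSeq (GRCh38.p14) the sequences. Of 60 such genes in the window, 3 are not in the counts used here and 3 were left out by the rule.

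Values in every library are given for the 4 nearest tested genes on each side, the IFITM genes and the 4 genes of at least 5 mean CPM with the smallest p. Lists name the genes past the threshold or else the gene of smallest p, and 1 list is not reported here. The members, lists and rules were chosen with earlier results of these data known. Alternatives were DESeq2 1.42.0, limma-voom (limma 3.58.1), other scalings and filters, the correction, the replicate number as a block and each library left out.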

Additional observations from a re-analysis of the deposited data

How the results depend on the processing

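No alternative with all 6 libraries called a flanking gene. With the correction and without control guide replicate 2, 1 was called, GATD1 (log2 fold change 0.22, adjusted p = 0.0406), and 0 without any other library. Genes called over all tested numbered 2 as reported, 1 with a filter of 1 CPM in 3 libraries, 1 with DESeq2 size factors, 1 with limma-voom, 28 with DESeq2, 39 with the correction and 57 with no filter, and ran from 1 to 24 without each library, and from 7 to 129 with the correction as well. Same-numbered libraries of both groups deviated in opposite ways without correction (r = -0.69, -0.78 and -0.19 over 11934 genes). Between differently numbered libraries r ran from -0.40 (HRAS guide 1 with control guide 3) to 0.75 (HRAS guide 2 with control guide 1). Those deviations carry each library's GC trend, so they cannot show whether the numbers pair cultures handled together. With the replicate number as a block, 1 gene was called, and 5 with the block and the correction, 0 of them flanking genes, and GATD1 had an adjusted p of 0.999 in the corrected block fit.

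Flanking genes whose groups do not overlap numbered 2 as reported, 4 with library totals (8.33%, against 9.16% of all tested genes), and 9 with the correction, with or without the block (18.8%, against 12.3%). They ran from 3 to 11 without each library (6.25% to 22.9%, against 14.5% to 24.5%), where fewer libraries overlap less by construction. With the correction as well they ran from 13 to 17 (27.1% to 35.4%, against 19.2% to 29%). The pathway lists had 1 gene called, VEGFA, with DESeq2, 1 with the correction and 1 with no filter, and from 0 to 1 without each library in either fit. With the correction and block VEGFA was not called (adjusted p = 0.168). The rank correlation of log2 fold change with distance was 0.29 without genes whose exons overlap another gene. It ran from 0.020 to 0.075 without each library, and from -0.0030 to 0.053 with the correction as well.

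The HRAS log2 fold change ran from -0.13 to 0.22 without each library, and from 0.03 to 0.11 with the correction as well. The values whose sign turned under an alternative follow, and the cause was not tested. IFITM3 was at 0.018 with the correction, 0.012 with library totals and 0.017 with the correction and block. RASSF7 was at -0.00058 with DESeq2, -0.00056 with its size factors in edgeR and -0.0017 with no filter. Without each library in turn, in the uncorrected fit, the ranges were -0.38 to 0.11 for AC137894.1, -0.13 to 0.20 for ANO9, -0.031 to 0.24 for AP006284.1, -0.087 to 0.20 for IFITM2, -0.11 to 0.13 for IFITM3 and -0.33 to 0.19 for IFITM5. They were -0.019 to 0.38 for LRRC56, -0.027 to 0.20 for PTDSS2, -0.16 to 0.22 for RASSF7 and -0.17 to 0.078 for RNH1. With the correction as well, they were -0.31 to 0.15 for AC137894.1, -0.0078 to 0.14 for ANO9, -0.021 to 0.15 for IFITM2, -0.0037 to 0.060 for IFITM3 and -0.18 to 0.087 for IFITM5. AP006284.1 stayed positive with the correction, at up to 0.24, as did HRAS, LRRC56, PTDSS2 and RASSF7, and RNH1 stayed negative. GATD1, TMEM80, AP006621.2, AP006621.3, AP006621.5 and LMNTD2 stayed positive and SCT and IFITM1 negative under every alternative run. Groups of 3 libraries, and low counts for the long noncoding genes and SCT, limit what could be detected.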
